A study of Mus musculus with 2 samples.

Results

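The genes described here encode subunits of the activins and inhibins, follistatin and its relatives, and receptors that bind activins. They were taken as every probe set (a group of probes for 1 transcript) that the platform annotation assigns to exactly 1 gene symbol, where that symbol is Inhbb, Inhba, Inha, Fst, Fstl1, Fstl3, Acvr1, Acvr1b, Acvr2a or Acvr2b. All 10 genes were found, with 20 probe sets, among 18193 genes and 34945 probe sets with 1 symbol. Probe sets are numbered within a gene from the brightest. The genes were chosen with their differences on these arrays known, Inhbb because it differed most, so every difference below is a description and carries no test.

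Glomeruli, the filtering units of the kidney, were isolated by graded sieving from male C57BL/6J mice, and their RNA was measured on 2 one-colour Affymetrix arrays, 1 per genotype. Both genotypes were GC-A fl/fl and p38 fl/fl, so both carried floxed alleles of the natriuretic peptide receptor GC-A and of the stress kinase p38. The double knockout was Nephrin-Cre (Cre/+), in which the nephrin promoter drives Cre recombinase in podocytes, which form the outer layer of the filter, and the floxed control was Nephrin-Cre (+/+), read here as no Cre allele. The mice were 2 months old, and for 3 weeks both genotypes had eaten chow with 6% NaCl while an osmotic minipump released aldosterone (0.2 µg/kg body weight each minute). The comparison addressed how glomerular transcripts differ with the podocyte deletions under that load. How many animals were pooled for each array is not stated in the labels, and no group without the salt and aldosterone load is part of this comparison. With 1 array per group no SD, test or p-value exists, and higher and lower refer to the double knockout array against the floxed control array.

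Activins are secreted dimers of β subunits that belong to the TGF-β family. They bind a type II receptor (Acvr2a or Acvr2b), which activates a type I receptor such as Acvr1b, and the signal reaches the nucleus through Smad2 and Smad3. Inhibins pair a β subunit with the α subunit and compete for the type II receptors, while follistatin and its relative Fstl3 wrap around activin and keep it from its receptors. In the kidney, activin is known as a factor in injury and fibrosis, and follistatin as its antagonist.

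The bases upstream of the gene starts are shown for the members whose brightest probe set was at least 2-fold higher, as context for those genes. RefSeq windows of GRCm38.p6 were matched for 9 of the 10 genes, all but Fst, and the 250 bases before the start are printed 5′ to 3′, with GGGCGG (the GC box) and TATAAA in capitals, on either strand. Inhbb lies at chr1:119422249-119422498 on the minus strand, Inhba at chr13:16011601-16011850 on the plus strand and Fstl1 at chr16:37776805-37777054 on the plus strand.

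Inhbb: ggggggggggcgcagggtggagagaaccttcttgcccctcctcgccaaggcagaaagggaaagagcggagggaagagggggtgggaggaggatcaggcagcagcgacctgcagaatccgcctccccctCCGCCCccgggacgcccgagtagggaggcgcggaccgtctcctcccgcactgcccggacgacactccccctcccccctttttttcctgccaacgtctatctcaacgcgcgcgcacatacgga

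Inhba: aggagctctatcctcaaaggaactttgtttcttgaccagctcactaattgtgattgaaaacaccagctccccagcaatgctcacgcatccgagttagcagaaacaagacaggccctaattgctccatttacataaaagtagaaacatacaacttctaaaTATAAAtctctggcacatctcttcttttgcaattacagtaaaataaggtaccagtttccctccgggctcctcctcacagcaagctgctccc

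Fstl1: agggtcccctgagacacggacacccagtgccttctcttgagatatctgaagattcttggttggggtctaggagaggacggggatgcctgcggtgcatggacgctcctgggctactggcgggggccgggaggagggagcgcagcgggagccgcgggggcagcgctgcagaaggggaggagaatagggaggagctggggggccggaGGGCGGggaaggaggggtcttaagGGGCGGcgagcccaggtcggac

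These windows differed in base composition. The G and C content was 68% for Inhbb, 43.2% for Inhba and 68% for Fstl1, against a median of 52.4% over 32851 windows. The GC box occurred 1 time for Inhbb, 2 times for Fstl1 and 0 times for Inhba, and 32.7% of all windows held it. TATAAA occurred 1 time for Inhba, starting 91 bases before the gene start, and 0 times for the other two, and 12.4% of all windows held it. The Smad-binding letters CAGAC, held by 42.2% of all windows, were in 0 of the windows printed. The AP-1 motif TGANTCA and the CRE motif TGACGTCA were searched on both strands too and had 0 matches in the windows of the 9 genes, against 6.75% and 1.55% of all windows. TATAAA holds no G or C, so it cannot overlap GGGCGG. A match says only that the letters are there.

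Signals are MAS5 intensities on a linear scale. A signal below 52.7, the mean over the arrays of their 40th percentile, was raised to that floor before log2, and a probe set counted as measured when the brighter of its signals was no lower than the floor. Of the 20 probe sets 18 were measured, 16 of them with neither signal under the floor, and all 10 genes had at least 1 measured probe set. At least 2-fold higher were 6 of the 18, against 3.27% of all 24455 measured probe sets. At least 2-fold lower were 0 of the 18, against 2.39%. With 1 probe set per gene, the brightest, 3 of 10 genes (Inhbb, Inhba and Fstl1) were at least 2-fold higher, against 3.53% of 13290 genes, and 0 were at least 2-fold lower, against 2.87%. Since these differences guided the choice of members, nothing is read from these shares. The background itself depends on the scaling: after centring both arrays on the median signal, 2.38% of probe sets were at least 2-fold higher and 3.39% lower, and 4 members were at least 2-fold higher.

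**Figure D1:**
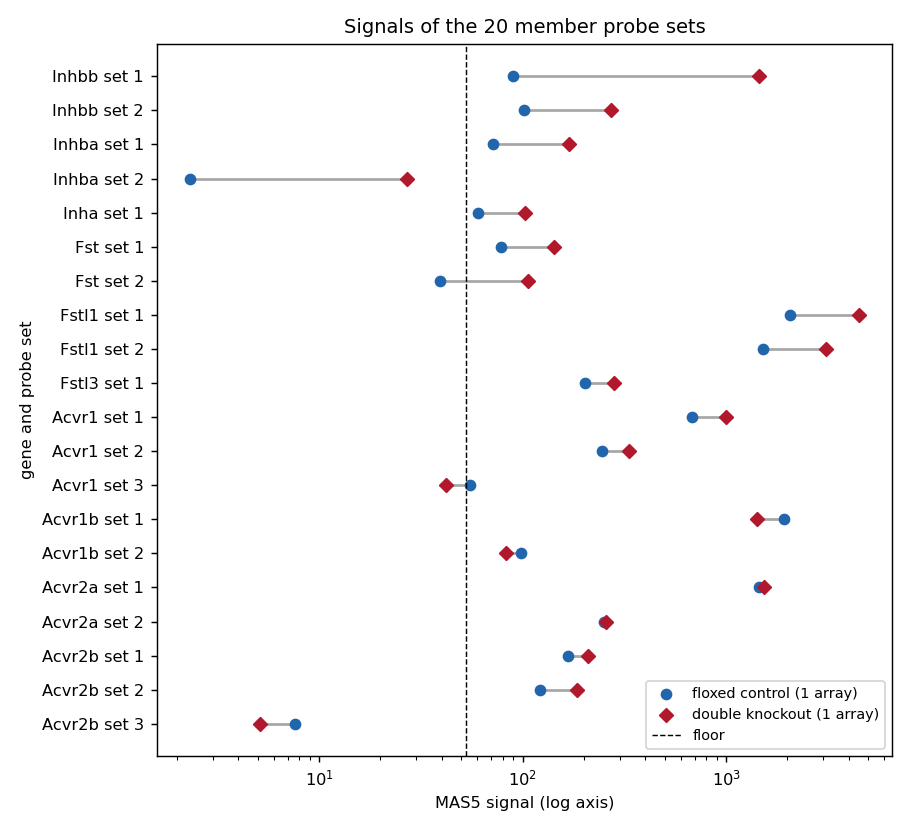
MAS5 signal (log axis) of each of the 20 probe sets in the floxed control (circles) and the double knockout (diamonds), 1 array each; the dashed line is the floor of 52.7. Set 1 of Inhbb runs from 90.1 to 1457, while the pairs of Acvr2a nearly coincide.

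The ligand subunits were all higher in the double knockout. Inhbb encodes the βB subunit of activin B and inhibin B. Its set 1 (1426858_at) read 90.1 in the control and 1457 in the double knockout, which is 16.2-fold higher or 4.01 on the log2 scale. That was rank 1 among all 24455 measured probe sets. Its set 2 (1426859_at) read 102 in the control and 272 in the double knockout, 2.68-fold higher or 1.42 on the log2 scale, at rank 203. Both probe sets thus read not far above the floor in the control and higher in the double knockout, but the size of the difference was not shared between them. Their log2 differences lay 2.59 apart. Over the 3591 genes with 2 measured probe sets that gap had a median of 0.23 and a 95th percentile of 0.83, and only 2 genes, Inhbb included, had a gap of at least that of Inhbb. Where the probe sets lie in the transcript is not given in the sources used here.

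Inhba encodes the βA subunit of activin A and inhibin A. Its set 1 read 71.1 in the control and 169 in the double knockout, 2.37-fold higher (log2 difference 1.25). The control signal was close to the floor. Its set 2 read 2.32 and 27.1, below the floor in both arrays, so it was not measured and gives no fold. Inha encodes the α subunit that turns an activin β chain into an inhibin. Its 1 probe set read 60.6 in the control and 103 in the double knockout, 1.69-fold higher (log2 difference 0.76), short of 2-fold. The α and βA transcripts were thus read at the low end of the arrays, where the floor weighs most.

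The spread of differences at like signal gives a scale for these values in the absence of replicates. All measured probe sets were divided into 10 bins by mean signal, and the central 95% of log2 differences was taken in each. For the bin of Inhbb set 1 it ran from -0.92 to 1.10, and for that of set 2 from -0.96 to 1.20, so both sets lay above it. For Inhba set 1 it ran from -0.93 to 1.27, and for Inha from -0.92 to 1.15, and both genes lay within it. Among the 18 measured member probe sets 5 lay above the range of their bin, 13 within it and 0 below it. By construction the range holds 95% of all measured probe sets of a bin. Since the differences guided the choice of members, nothing is read from these counts. The range describes how all transcripts differed between these 2 arrays, and it is not a replicate error.

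**Figure D2:**
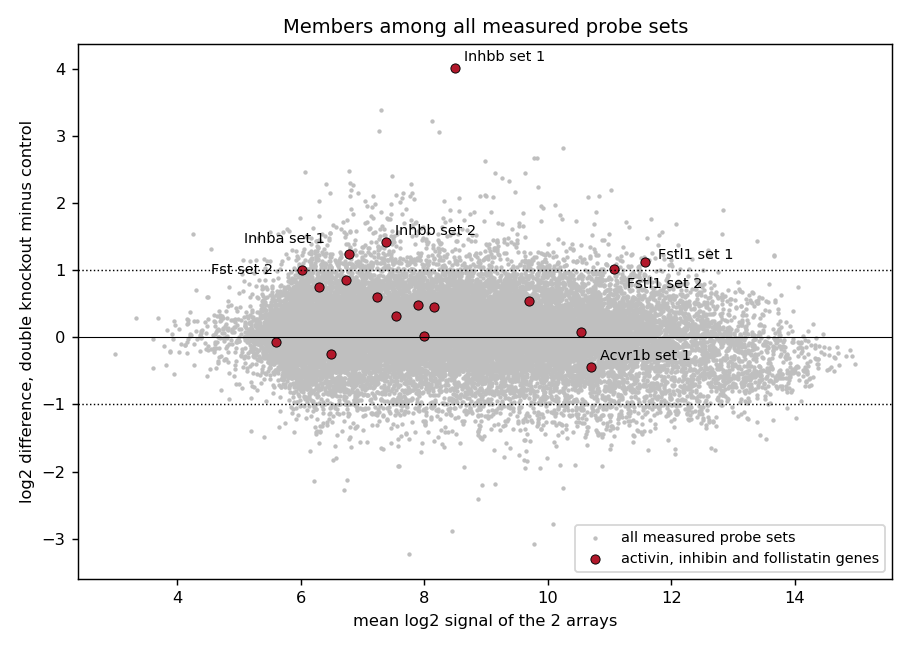
Log2 difference (double knockout minus floxed control) against the mean log2 signal of both arrays for 24455 measured probe sets (grey) and the 18 measured member probe sets (red); dotted lines mark 2-fold. Set 1 of Inhbb stands at 4.01, the highest point of the plot, and Acvr1b set 1 at -0.44 is the lowest member.

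The follistatin group was higher as well. Fst encodes follistatin, the main secreted antagonist of activins. Its set 1 read 78.6 in the control and 143 in the double knockout, 1.82-fold higher (log2 difference 0.86). Its set 2 read 39.5 in the control, below the floor, and 106 in the double knockout, which is at least 2.01-fold higher. That bound sits on the 2-fold line, and under every other scaling the set fell short of it, at 0.94 to 0.96 or, recentred on glomerular cell markers, 0.28 on the log2 scale. The sets of Fst differed from each other by 0.15 on the log2 scale, set 1 lay within the central 95% of its bin, and set 2 lay just above it (0.85).

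Fstl1 encodes a secreted glycoprotein that shares the follistatin domain but is not a classical activin antagonist. It read 2066 in the control and 4497 in the double knockout with set 1, 2.18-fold higher (log2 difference 1.12). With set 2 it read 1514 and 3085, 2.04-fold higher (1.03). The pair of sets lay 0.10 apart and both were above the central 95% of their bins, which ended at 0.87 and 0.98. Both Fstl1 sets thus gave nearly the same difference, at signals far above the floor, though set 2 stood at 0.93 after median centring. Fstl3, a follistatin relative that also neutralises activin, had 1 probe set, at 202 in the control and 281 in the double knockout, 1.39-fold higher (log2 difference 0.48) and within its bin.

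The receptors gave smaller differences than every measured ligand probe set. Of 10 receptor probe sets 9 were measured, 6 of them above 0 (56.8% of all measured probe sets were) and 3 below, with log2 differences from -0.44 to 0.60, all within the central 95% of their bins. None was past 2-fold. Acvr1b, the main type I receptor of activins, was the 1 gene whose measured probe sets were both lower. Its set 1 read 1925 in the control and 1418 in the double knockout, 1.36-fold lower (log2 difference -0.44), and its set 2 read 98.2 and 82.4, 1.19-fold lower (-0.25).

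Acvr1 encodes a type I receptor used mainly by bone morphogenetic proteins, which also binds activin. Its set 1 read 682 in the control and 999 in the double knockout, 1.46-fold higher (log2 difference 0.55), and its set 2 read 245 and 333, 1.36-fold higher (0.45). Its set 3 was near the floor, at 55.0 in the control and 42.2 in the double knockout, and gives a difference of -0.06 against the floor. The brighter Acvr1 sets shared a direction, and the dimmest gives only a bound near 0.

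The type II receptors bind the ligands first. Acvr2a read 1444 in the control and 1527 in the double knockout with set 1, 1.06-fold higher (log2 difference 0.08). With set 2 it read 251 and 256, 1.02-fold higher (0.03). Together with Acvr1 set 3 these were the smallest differences of the measured members, and the sign of set 1 turned to -0.01 after the arrays were centred by their median (or their 75th percentile) and that of set 2 to -0.09 after quantile normalization. A further probe set that the annotation shares between Orc4 and Acvr2a read 31.2 and 29.2, below the floor, and was left out by the rule.

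Acvr2b read 167 in the control and 209 in the double knockout with set 1, 1.25-fold higher (log2 difference 0.32). With set 2 it read 122 and 184, 1.51-fold higher (0.60). Its set 3 read 7.62 and 5.11, below the floor in both arrays, and was not measured. The measured Acvr2b sets thus shared a direction and stayed short of 2-fold.

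By the difference of the brightest probe set the genes ran in the order Inhbb, Inhba, Fstl1, Fst, Inha, Acvr1, Fstl3, Acvr2b, Acvr2a and Acvr1b. The median over the 10 genes was 0.65 on the log2 scale, or 0.55 over the 9 genes without Inhbb, against 0.07 over all 13290 measured genes. Of the 10 genes 9 were above 0, against 56.1% of all measured genes. Most neighbours in that order differed by less than the spread of differences at their signal (robust SD from 0.39 to 0.50). The exceptions were the steps from Inhbb to Inhba and from Acvr2a to Acvr1b. With Inhbb set 2 (1.42) in place of set 1, the step to Inhba (1.25) was within that spread as well. The spread is not a replicate error, so no step of the order is settled by these arrays.

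Markers of cell types moved with the genotypes on these arrays. The 29 measured markers of podocytes, glomerular endothelium, mesangial and mural cells and parietal epithelium had a median log2 difference of 0.72. Their summed signals in the double knockout and the control were 66485 and 47910 for 8 of 10 podocyte markers with a probe set, 42633 and 26063 for 8 of 8 endothelial, 25949 and 14072 for 7 of 8 mesangial and mural, and 11801 and 8519 for 6 of 6 parietal markers. None of those markers was below the floor in both arrays, so the defining genes of glomerular cells were present in both. All measured podocyte, endothelial and mesangial and mural markers were higher. Of the 6 parietal markers 4 were higher and 2 lower (Krt8 at -0.15 and Pax8 at -0.04), with Cd44 the highest at 2.46. All 10 proximal tubule markers were lower, with summed signals of 52521 and 90003, and so were all 10 markers of the loop, distal tubule and collecting duct, at 41540 and 58859. All 10 macrophage and monocyte markers were higher, at 11150 and 6122. Of 8 lymphocyte markers 7 had a probe set, 4 of them (Cd3e, Cd3g, Cd4 and Cd79a) below the floor in both arrays, and their sums were 347 and 332. The 5 fibroblast markers had a median of -0.03, with sums of 9072 and 6126. In such bulk samples fewer cells of a type and less RNA per cell cannot be told apart, and the part of cell composition in the differences of the members was not tested.

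Set against the glomerular markers, the members fell on both sides. After 0.72 was subtracted from every log2 difference, Inhbb set 1 stood at 3.29 and set 2 at 0.70, Inhba at 0.52, Fstl1 at 0.40, Fst at 0.14 and Inha at 0.04. Below 0 were Acvr1 (-0.17), Fstl3 (-0.25), Acvr2b (-0.40), Acvr2a (-0.64) and Acvr1b (-1.16). On that scale 5 genes were above the markers and 5 below. The median of the members was -0.069, against -0.66 over all measured genes. Inhbb set 1 was the only member probe set at least 2-fold higher, against 0.35% of all measured probe sets. Acvr1b set 1 was the only one at least 2-fold lower, against 21.9%. Since the differences guided the choice of members, nothing is read from these shares either.

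**Figure D3:**
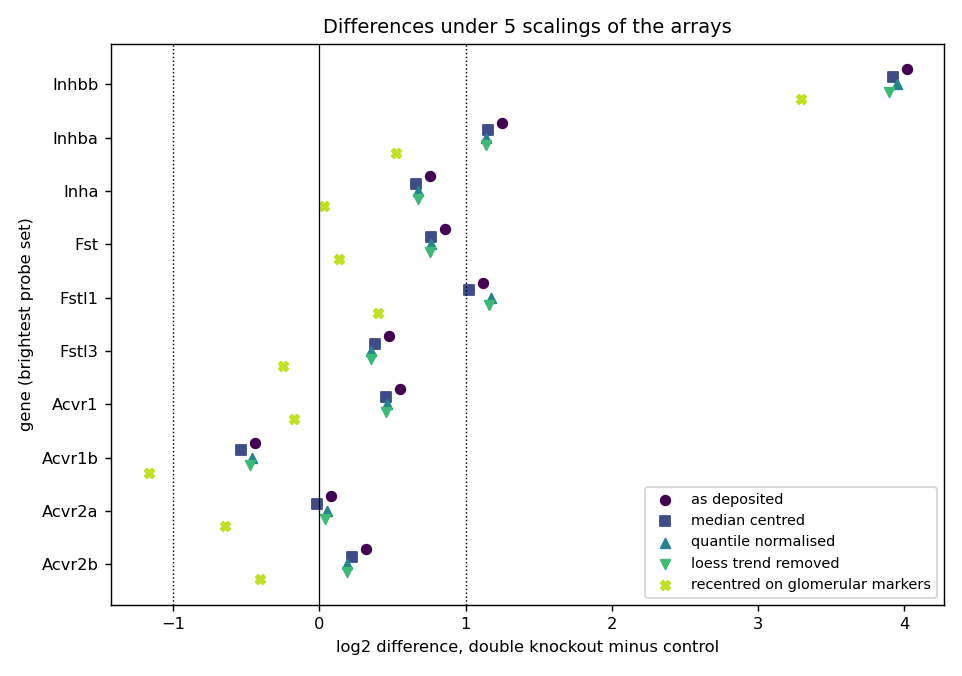
Log2 difference (double knockout minus floxed control) of the brightest probe set of each member gene as deposited and under 4 other scalings; dotted lines mark 2-fold. Inhbb stays between 3.29 and 4.01, and recentring on glomerular markers puts Fstl3 and all 4 receptors below 0.

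The targeted genes check the labels only in part. Npr1, which encodes GC-A, read 167 in the control and 102 in the double knockout (log2 difference -0.71). Mapk14, which encodes p38α and stands here for the p38 of the labels, which name no isoform, ran from -0.23 to 0.25 over its 5 measured probe sets. Podocytes are 1 of several cell types of the glomerulus, and a probe set outside the floxed part checks nothing.

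Beyond the members, 64 other genes of the pathway were listed, of which 60 had a probe set and 48 were measured. By the brightest probe set 10 of the 48 were at least 2-fold higher and 0 were lower by that much. The shares of all measured genes were 3.53% and 2.87%. Recentred on glomerular markers 3 were at least 2-fold higher and 3 lower, against 0.35% and 21.9% of all measured probe sets. The median log2 difference of the 48 was 0.49, or -0.23 after that recentring. These lists too were drawn up with earlier results of these data known, so nothing is read from their counts.

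Other ligands of the activin class were barely read. Of 5 with a probe set, Gdf3, Inhbc, Inhbe and Nodal were below the floor in both arrays, and Gdf11 read 98.4 in the control and 98.7 in the double knockout. Gdf11 was thus the only other ligand of the list read above the floor, at nearly equal signals. Among other receptors and co-receptors 10 of 12 were measured, 0 past 2-fold, with a median of 0.47. The highest were Bmpr1b, a type I receptor of bone morphogenetic proteins (138 in the control and 261 in the double knockout, 1.88-fold), and Acvrl1, an endothelial type I receptor (372 and 595, 1.60-fold). The lowest were Igsf1 (74.8 and 61.0, log2 difference -0.29) and Tgfbr1, the type I receptor of TGF-β, at 0.24 with its brightest probe set and down to -0.60 in another.

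Of the other extracellular antagonists and follistatin relatives 6 of 11 were measured, 0 past 2-fold, with a median log2 difference of 0.43. Bgn, which encodes the proteoglycan biglycan, read 4301 in the control and 7372 in the double knockout (1.71-fold higher). Wfikkn2, a binder of myostatin and Gdf11, read 61.2 and 100.3 (1.64-fold higher). Grem1, an antagonist of bone morphogenetic proteins, was 1.64-fold lower (151 in the control and 92.0 in the double knockout), and Dcn, which encodes decorin, had a difference of -0.04.

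The proprotein convertases cut the precursors of this family to release the mature dimers. All 4 were measured and 1 was past 2-fold. Pcsk6 read 776 in the control and 3322 in the double knockout, 4.28-fold higher, with 1 probe set. Pcsk5 was 1.65-fold higher by its brightest set, but its 5 measured sets ran from -0.67 to 0.99 on the log2 scale. Furin (1181 and 1376) and Pcsk7 (679 and 685) had differences of 0.22 and 0.01. Pcsk6 thus had the largest difference of the 4, at 1.37 after recentring on glomerular markers.

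Of the Smads and their partners 13 of 14 were measured, with a median of 0.46 and 1 past 2-fold. That was Pmepa1, which encodes a membrane protein that sequesters receptor-activated Smads, at 828 in the control and 1671 in the double knockout (2.02-fold higher), and its 3 measured sets ran from 1.01 to 1.76. Its brightest set sits on the 2-fold line and fell short of it under each other scaling, at 0.92 to 0.96, or 0.29 recentred on glomerular markers. Tgif1, a Smad corepressor, was 1.89-fold higher. Zfyve9, which presents Smads to the receptor, had the lowest difference (-0.16), and Trim33 stood at 0.08.

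Genes known to respond to activin or TGF-β had the highest median of these lists, 1.23, or 0.51 after recentring on glomerular markers. All 14 with a probe set were measured, and 8 were at least 2-fold higher, with 0 lower by that much, against 3.53% and 2.87% of all measured genes. Recentred on glomerular markers, 2 of the 14 were higher and 1 lower by that rule, against 0.35% and 21.9% of all measured probe sets. The highest were Fn1, which encodes fibronectin (968 in the control and 4428 in the double knockout, 4.57-fold, but 0.79 on the log2 scale in its other probe set), and Ltbp2, a microfibril protein of the latent TGF-β binding family (106 and 471, 4.44-fold). The lowest were Id2, an inhibitor of differentiation (6515 and 5298, 1.23-fold lower), and Id1 (1.14-fold higher). Several of these genes also mark mural cells or fibroblasts (Tagln, Acta2 and Col1a1), whose summed signals are given above, and the part of those cells was not tested.

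**Figure D4:**
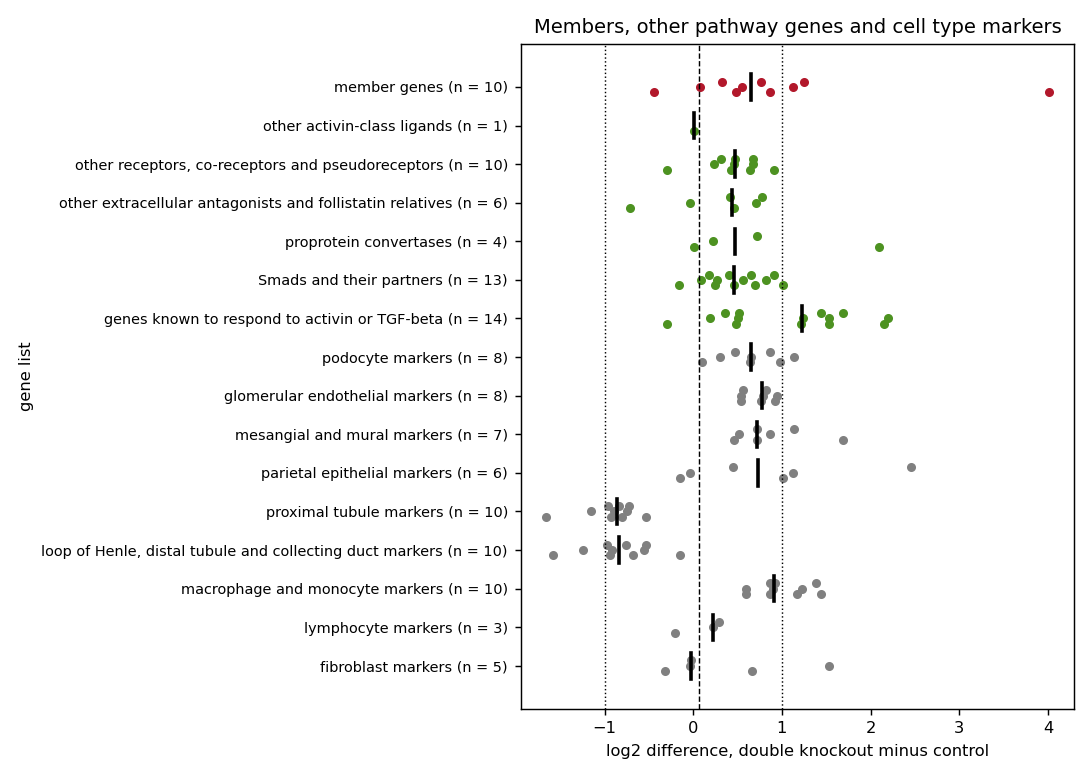
Log2 difference (double knockout minus floxed control) of each measured gene by its brightest probe set, for the 10 member genes (red), the lists of other pathway genes (green) and the cell type markers (grey); black bars are list medians, the dashed line is the median of all measured genes (0.07) and dotted lines mark 2-fold. The members have a median of 0.65, near the glomerular markers, and both tubule lists lie below 0.

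With only 2 arrays, likeness to Inhbb is a single difference. Among genes with neither signal under the floor, the 5 with the log2 difference nearest to that of Inhbb set 1 were Nell2 (3.23), Nkain4 (3.07), Vcam1 (2.82), Igfbp2 (2.68) and Havcr1 (2.67). Inhbb set 1 had the highest difference of all, so these can only be the next highest of those genes. The list therefore restates that ranking. The nearest, Nell2, read 91.1 in the control and 858 in the double knockout and was 0.78 away from Inhbb. The difference of Inhbb set 2 (1.42) lies below all of them.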

How the data were processed

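The authors deposited a linear intensity for each probe set in each array, computed with MAS5 per the submitters' processing notes, which give no version. From the values, the mean after leaving out the lowest and highest 2% was 500.0 on both arrays, so each array was scaled to one mean and a difference is relative to the rest of that sample. Values were used without rescaling. Of 45101 probe sets, 64 controls were left out. GEO's platform annotation gave 34945 of the others 1 gene symbol, 932 several and 9160 none, and the identifiers of all 10 member genes matched RefSeq (GRCm38.p6) under the same symbol. Sequences are RefSeq's. A gene was represented by its brightest probe set, sets with suffix _x_at only where no other existed. A fold against a signal below the floor (52.7) was computed against the floor and is a lower bound. Genes outside the members were named by a rule: the 2 highest and 2 lowest measured genes of each pathway list and the 5 nearest to Inhbb. Members, lists and rules were chosen with earlier results of these data known. The number of arrays limits the precision. Alternatives were other floors, scalings, probe set choices and size rules. Steps were tested on simulated signals, with large changes placed in genes well above the floor and noise smaller than the spread on these arrays. Small changes near the floor, recentring on glomerular markers and the bins of signal were not covered. The alternative floors, probe set choices and size rules were not covered either. Computations used Python 3.11.15 with pandas 2.3.3 and statsmodels 0.14.6.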

Additional observations from a re-analysis of the deposited data

How the results depend on the processing

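The values have no replicate error, so a log2 difference was taken to hold where it moved by less than the robust SD of differences at like signal, and a count where it stayed within 1.5 times. With 1 value per gene, Inhbb stayed higher in all 11 alternatives. The value was 1.42 when its lower probe set was taken (the one of median difference) and 2.72 for the mean over its probe sets. Otherwise it followed set 1, up to 4.01. It was 3.29 recentred on glomerular markers and 3.01 with the floor at the 60th percentile, where its control signal is below the floor. Inhbb set 2 stood at 0.70 and 0.59 under those settings, short of 2-fold. The median of the member genes was -0.069 recentred on glomerular markers. Member probe sets at least 2-fold higher numbered 3 with the floor at the 60th percentile, against 2.51% of all measured probe sets. Under the 3-fold rule 1 was higher, against 0.50%. Recentred on glomerular markers 1 was at least 2-fold higher and 1 lower, against 0.35% and 21.9%. With the floor at the 60th percentile Inhba, Inha and Fst were no longer measured. The other pathway genes past the size rule were 3 higher and 3 lower recentred on glomerular markers. They were 21 higher and 1 lower under the 1.5-fold rule, against 13.3% and 9.17% of all measured probe sets. Under the 3-fold rule 4 were higher, against 0.50%. Signals near the floor limit Inhba, Inha and Fst most. No replicate could be left out, and no paired analysis was possible because each group has 1 array.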
